A study of Mus musculus with 18 samples.

Results

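The first day of primary culture of mouse kidney proximal tubules was compared with the day of isolation. The samples were chosen by their titles, day 1 replicates A, B and C against day 0 replicates A, B and C, which are 6 of the 18 libraries of a culture series. All came from kidneys of untreated wild type C57BL/6 females aged 6 weeks, from which tubules were freed with collagenase and enriched on a Percoll gradient. Day 1 tubules had been plated on culture plastic, and nothing else set the groups apart in the labels. Replicates are called biological in the labels, with no word on which animals or dishes they came from. The p-values use the spread within days over all 18 libraries, which may be technical.

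The proximal tubule recovers most of the filtered solutes and protein, and it lives on the oxidation of fatty acids, amino acids and lactate in its many mitochondria. Its identity is held by nuclear receptors and homeodomain factors such as HNF4A. An injured or freshly isolated tubule cell flattens, spreads and prepares to divide, and it turns on stress factors, signalling proteins and receptors that the resting tubule hardly makes.

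PolyA RNA was sequenced, and the 6 libraries held 25085362 to 37579097 estimated counts. Levels are in CPM (counts per 1000000 counts, with library sizes scaled by the trimmed mean of M values, TMM), given for replicates A, B and C in that order or as mean ± SD (n = 3). A gene was called higher or lower at a Benjamini-Hochberg (BH) adjusted p under 0.05 in edgeR's quasi-likelihood test. Of 18754 genes tested, 6208 (33.1%) were called higher and 6949 (37.1%) lower on day 1, together 70.2%, so a share of calls near these values is the background for each list below. The libraries of the 2 days did not overlap for 74.5% of the genes. Higher calls were 47.2% of all calls, but 58.3% with library sizes alone and 61.6% on log2(TPM + 1) (TPM, the deposited values per transcript length). The median log2 fold change, -0.01 with TMM, moved up by 0.30 and 0.35 under these settings, and fold changes and CPM are given relative to TMM. Shares of counts are percentages of the unscaled total of a library, so they do not carry the TMM scaling.

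Slc34a1, the sodium-phosphate cotransporter of the proximal tubule brush border, was at 13740, 14670 and 12850 CPM on day 0 and at 3723, 5281 and 2600 CPM on day 1. Fosl1 had no count in any day 0 library, Havcr1 lay under 0.3 CPM and Hmox1 between 34.4 and 42.3 CPM. On day 1 these 3 injury genes stood at 648 CPM or more in each library. All 8 proximal tubule markers fell, from 1.81 ± 0.0547% to 0.609 ± 0.157% of the counts. The preparations also held RNA of other cells. The 6 markers of the loop of Henle and distal tubule summed to 4928 to 6292 CPM on day 0 and 258 to 512 CPM on day 1, and the 8 collecting duct markers to 1033 to 1521 and 118 to 159 CPM. All 14 fell, and none was at 0 on either day. Macrophage and leukocyte markers summed to 102 to 258 CPM on day 0 and 23.7 to 30.8 CPM on day 1, with 8 of 9 tested lower. Podocyte markers (5 of 5 tested lower), red cell markers (5 of 5 lower) and fibroblast markers (1 of 7 higher and 2 lower) summed to 389 to 493, 65.9 to 99.8 and 29.5 to 32.4 CPM on day 0 and to 146 to 212, 20.5 to 29.8 and 16.9 to 34.3 CPM on day 1. In bulk RNA, fewer cells of a type and less RNA per cell cannot be told apart, here or in any result below. Endothelial markers summed to 229 to 301 CPM and 176 to 300.1 CPM, and of 9 tested 4 rose and 2 fell.

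Abundant genes were called more often than all genes tested, and the most abundant ones mostly lower. Among 2523 genes with a mean of at least 100 CPM over the 6 libraries, 1016 (40.3%) were higher and 1200 (47.6%) lower, with a median log2 fold change of -0.14 against -0.01 for all genes. By size of change they did not stand out. At least 4-fold, 172 of the 2523 were higher and 251 lower, against 1643 and 1971 of all 18754 genes tested. Among 637 genes of at least 300 CPM, 192 (30.1%) were higher and 378 (59.3%) lower, with a median of -0.82. Gpx3, the glutathione peroxidase that the tubule secretes into plasma, lost most in absolute terms. It was at 81880, 87430 and 74140 CPM on day 0 and at 27050, 32880 and 20080 CPM on day 1. The gains were smaller in CPM. Sqstm1, the autophagy receptor p62, rose from 740, 802 and 798 CPM to 5932, 5544 and 5363 CPM. Lgals3, the lectin galectin-3, rose from 55.2, 44.1 and 72 CPM to 2851, 2683 and 2694 CPM. Txnrd1 and Srxn1, which regenerate thioredoxin and peroxiredoxin, rose from 260 ± 23.1 to 2908 ± 303 CPM and from 127 ± 11.5 to 2515 ± 332 CPM. None of these genes overlapped between days, and their adjusted p was at most 0.000606 (edgeR quasi-likelihood, BH). Fth1, the ferritin heavy chain, rose from 7299 ± 152 to 12170 ± 863 CPM, but was not called against a fold of 2.

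Among the functions, the breakdown of amino acids lost the most. In that list 52 of 55 tested members fell and 3 rose, and the median log2 fold change was -1.95. Its share of all counts was 2.23%, 2.18% and 2.07% on day 0 and 0.613%, 0.767% and 0.496% on day 1. The list also holds enzymes that make creatine and arginine. Gatm, which makes the creatine precursor (ENSMUSG00000027199, chromosome 2, 122594467 to 122611303, GRCm38), was at 5450, 5747 and 5343 CPM on day 0 and at 408, 700 and 240 CPM on day 1. Ass1, of arginine synthesis, fell from 2748 ± 278 to 735 ± 185 CPM, and Acmsd, of tryptophan breakdown, from 415 ± 52.6 to 41 ± 11.3 CPM. The groups did not overlap for any of the 3. The members that rose included Arg2, the mitochondrial arginase, from 4.56 ± 1.51 to 16.6 ± 1.47 CPM.

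The tricarboxylic acid cycle and the peroxisome fell with it. All 25 cycle genes fell, by 0.50 to 2.58 on the log2 scale, and their share of counts went from 1.33 ± 0.0270% to 0.648 ± 0.0590%. Idh2, the mitochondrial NADP isocitrate dehydrogenase, fell from 939 ± 93.8 to 157 ± 54.2 CPM and Sdha, a subunit of succinate dehydrogenase, from 1883 ± 62.4 to 719 ± 137 CPM. Of 47 peroxisome genes 45 fell and 1 rose, and their share went from 1.42 ± 0.0823% to 0.557 ± 0.124%. Hacl1, of fatty acid alpha-oxidation, was at 335, 334 and 304 CPM on day 0 and at 31.8, 51.5 and 19.6 CPM on day 1. Cat, the peroxide-degrading catalase, fell far less, from 1584 ± 111 to 986 ± 165 CPM, and was not called against a fold of 2.

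Solute carriers outside the brush border changed both ways. Of 49 tested 29 fell and 16 rose, with a median of -1.14, and the share of counts went from 1.88 ± 0.0910% to 0.921 ± 0.0566%. Slc16a7, a monocarboxylate importer, fell from 266 ± 34.3 to 19.1 ± 5.66 CPM. Slc16a3, the monocarboxylate carrier of lactate-exporting cells, was at 0.852, 0.432 and 1.08 CPM and then at 259, 258 and 281 CPM. Its log2 fold change was 8.45 ± 0.72 (SE), with an adjusted p of 4e-08 (edgeR quasi-likelihood, BH). Slc7a11, the cystine importer, rose from 0.701 ± 0.327 to 67 ± 22.5 CPM. So 2 carriers close to absent at isolation were well expressed in all 3 libraries a day later.

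The machinery that makes proteins rose across several lists. Of 41 ribosome assembly genes 39 rose and none fell. Their median log2 fold change was 2.18, and their share of counts went from 0.133%, 0.129% and 0.126% to 0.767%, 0.716% and 0.798%. Tsr1, a maturation factor of the small subunit (ENSMUSG00000038335, chromosome 11, 74898071 to 74909342, GRCm38), rose from 27.2, 27.7 and 26.3 CPM to 426, 392 and 386 CPM. Nop58, a core protein of the particles that methylate ribosomal RNA, rose from 28.4 ± 2.04 to 357 ± 9.05 CPM, and Ncl, nucleolin, from 325 ± 26.9 to 1378 ± 36.7 CPM. The ribosomal proteins themselves rose less. Of 50 tested 49 rose, with a median of 0.88, and their share went from 0.468 ± 0.0408% to 1.09 ± 0.164%.

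Translation factors and tRNA synthetases moved alike. Of 40 translation factors 36 rose and none fell, with a median of 1.26. The largest rise among the named members was that of Eif4ebp1, which holds back initiation rather than driving it, from 17.2, 13.5 and 17.6 CPM to 242, 230 and 229 CPM. Eif1a, which positions the scanning ribosome, rose from 71.5 ± 3.65 to 433 ± 15.1 CPM. Eef1a1, the main elongation factor, had 1671 ± 75.5 and 2029 ± 84.3 CPM and was not called (adjusted p = 0.0813, edgeR quasi-likelihood, BH). It was called without day 7 replicate C, which shares the fit, and with the 6 libraries, library sizes or TPM. Of 22 tRNA synthetase genes 21 rose, with a median of 1.42. Cars, which charges cysteine tRNA, rose from 23.4 ± 1.46 to 143 ± 7.82 CPM. Qars, which charges glutamine tRNA, was the member that fell, from 62.4 ± 2.24 to 47.2 ± 6.05 CPM. That call was lost with the 6 libraries alone, library sizes alone, TPM or a fold of 2.

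RNA handling, protein folding and the cytoskeleton followed. Of 49 splicing and RNA-binding genes 37 rose and 2 fell, of 41 nuclear transport genes 35 rose and 2 fell, and of 46 proteasome and chaperonin genes 34 rose and 6 fell. Nup62, of the nuclear pore, rose from 19.5 ± 0.874 to 129 ± 7.42 CPM, and Ran, the GTPase that gives transport its direction, from 144 ± 6.35 to 602 ± 32.4 CPM. Cct5, a chaperonin subunit that folds actin and tubulin, rose from 214 ± 16.1 to 670 ± 5.96 CPM. Of 13 tubulins 11 rose and 1 fell, and their share went from 0.0733 ± 0.00843% to 0.342 ± 0.0398%. Tubb6, a beta-tubulin, was at 9.09, 8.18 and 8.21 CPM and then at 376, 334 and 364 CPM. Of 52 actin cytoskeleton genes 33 rose and 12 fell, and their share went from 0.785 ± 0.0277% to 1.98 ± 0.0581%. Actn1, the actin crosslinker of stress fibres, rose from 11.4 ± 1.08 to 221 ± 12.3 CPM. Pls1, a bundling protein of microvilli, fell from 194 ± 16.8 to 52.1 ± 14 CPM. Of 36 genes of nucleotide and polyamine synthesis 22 rose and 10 fell. Mthfd2, the mitochondrial folate enzyme of dividing cells, rose from 3.62 ± 0.268 to 121 ± 6.72 CPM, while Shmt1, the cytosolic serine hydroxymethyltransferase that feeds folate metabolism, fell from 196 ± 17.7 to 31.8 ± 4.85 CPM.

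Entry into the secretory pathway and mitochondrial import showed no direction that held across scalings. Of 50 genes of ER entry and vesicle coats 17 rose and 20 fell, but 26 rose and 9 fell with library sizes alone. For 36 genes of mitochondrial import and folding the counts were 14 and 17, and 18 and 11 with library sizes alone. Kdelr3, a receptor that returns proteins to the ER, stood out of the first list with 0.189, 0.18 and 0.205 CPM on day 0 and 38.8, 37.6 and 41 CPM on day 1. Hspa9, the mitochondrial HSP70, rose from 1154 ± 21.7 to 2392 ± 116 CPM, though not against a fold of 2, and Dnajc19, another import subunit, fell from 138 ± 10.4 to 44.8 ± 5.06 CPM.

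**Figure D1:**
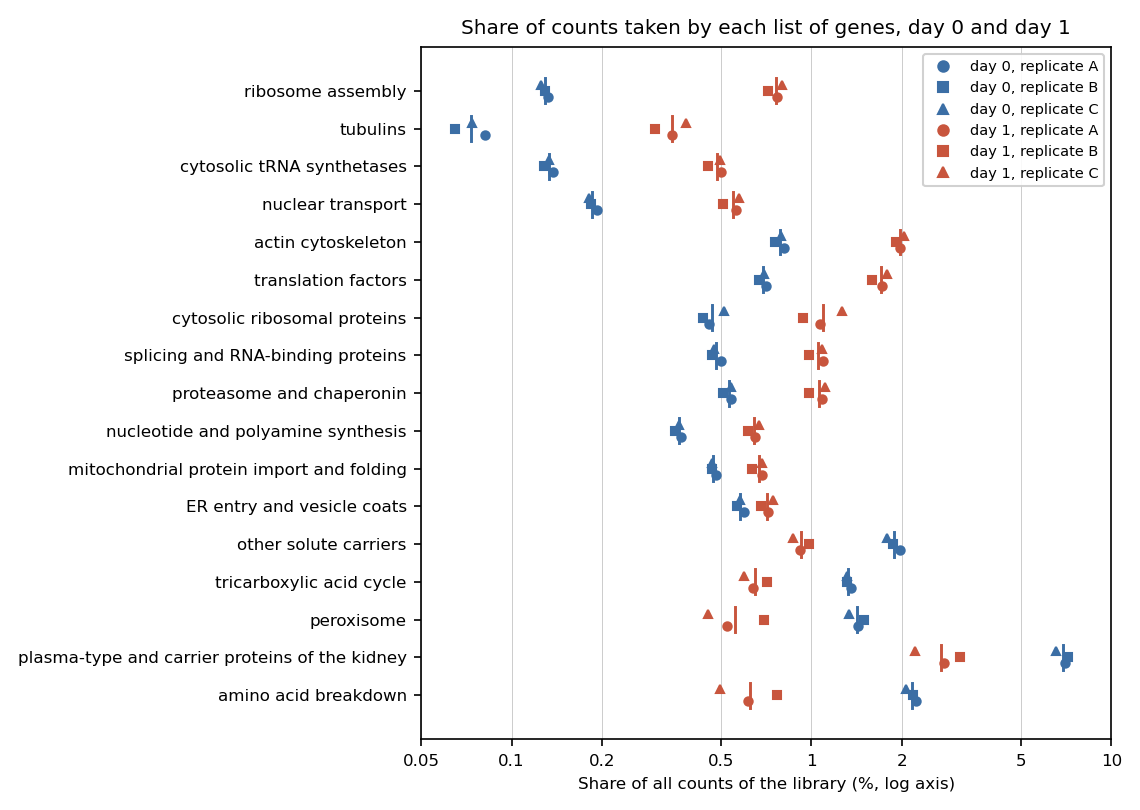
Share of all estimated counts taken by 16 function lists and the plasma-type secreted proteins (percent, log axis) in each of the 6 libraries, with symbols for the replicates and bars for the mean of a day. In 5 lists (amino acid breakdown, the tricarboxylic acid cycle, the peroxisome, other solute carriers and plasma-type proteins) the day 1 points lie to the left of day 0, and in the other 12 to the right. Shares depend on all other genes of a library, and the counts of members for mitochondrial import and for ER entry turn with the scaling. The shares are not scaled by TMM. With TMM, the summed CPM of ER entry was 7445 to 7777 on day 0 and 7418 to 7790 on day 1.

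As the plot of count shares shows, the day 1 libraries also differed among themselves. In the lists of amino acid breakdown, the tricarboxylic acid cycle, the peroxisome, plasma-type proteins and solute carriers, replicate B kept the highest share and replicate C the lowest. For ribosome assembly, ribosomal proteins and translation factors the order was the reverse. Replicate B also had the highest share of proximal tubule markers, 0.778% against 0.583% and 0.467% in A and C. The part of this spread in the results was not tested, but the days stayed apart in each of these lists.

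Among 21 lists of regulators, secreted factors and receptors, the higher share exceeded the 33.1% of all genes most for IRF, STAT and REL factors and cytokines, and the lower share exceeded 37.1% most for plasma-type proteins and nuclear receptors.

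**Figure D2:**
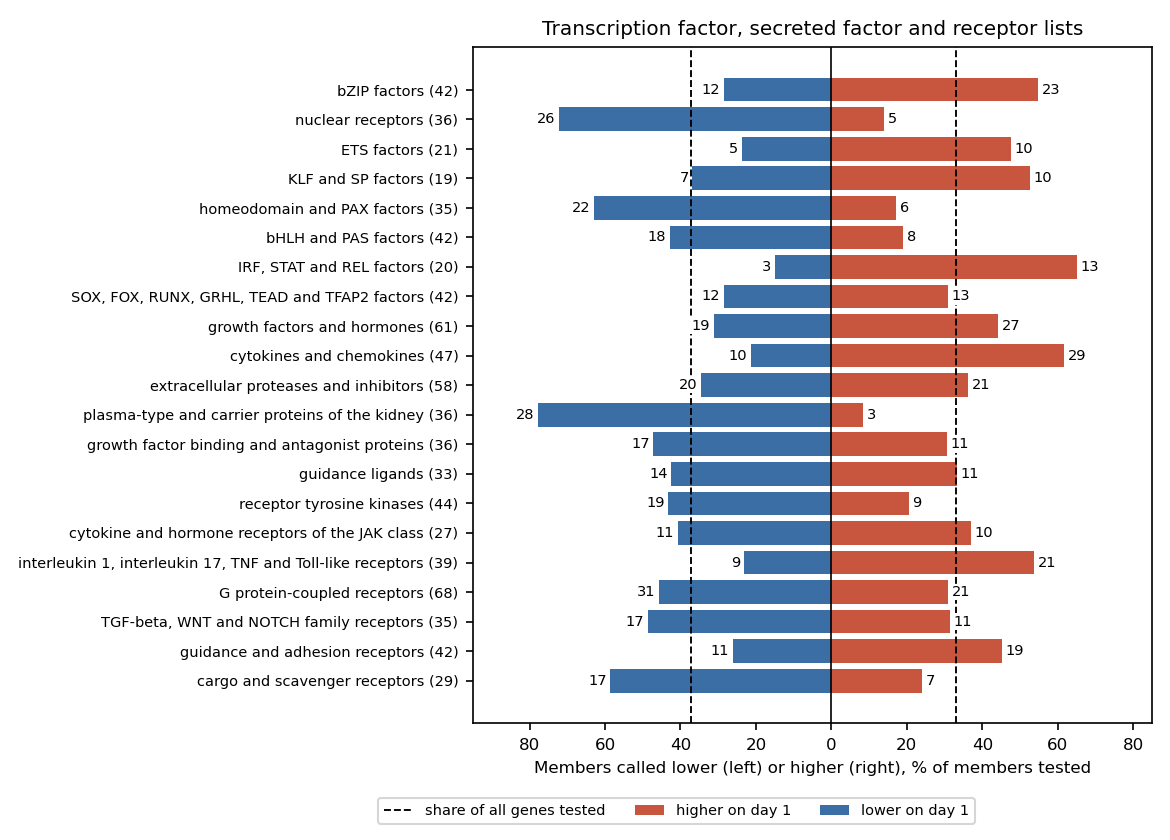
Percent of tested members of 21 lists called lower (left) or higher (right) on day 1, with the number of members at each bar and the number tested in parentheses. Dashed lines give the shares of all genes tested, 37.1% lower and 33.1% higher. Nuclear receptors and plasma-type proteins reach furthest to the left, and IRF, STAT and REL factors and cytokines furthest to the right. For the SOX to TFAP2 group, proteases, binding proteins, guidance ligands, JAK class receptors, G protein-coupled receptors and TGF-beta, WNT and NOTCH receptors the balance of calls turned or evened out with another scaling.

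Transcription factors were called about as often as all genes. Of 257 tested 88 were higher and 105 lower, with a median of -0.08, so the families rather than the class carry a direction. The bZIP family rose: 23 of 42 were higher and 12 lower, with a median of 0.50. Fosl1, a partner of JUN in the AP-1 dimer (ENSMUSG00000024912, chromosome 19, 5447547 to 5455946, GRCm38), had 0 counts on day 0 and 672, 684 and 648 CPM on day 1. This is at least 15200-fold higher, taking 3 counts over the day 0 libraries as the floor. Creb5, a CRE-binding factor, rose from 0.0947, 0.252 and 0.205 CPM to 28.2, 25.7 and 26.8 CPM. Maff, a small MAF that pairs with NRF factors, rose from 0.426, 1.15 and 0.77 CPM to 95.7, 111 and 83.9 CPM. Both log2 fold changes, 7.12 ± 0.24 and 6.90 ± 0.24 (SE), had an adjusted p of at most 2.56e-12 (edgeR quasi-likelihood, BH). Jun itself was abundant already, at 346, 537 and 243 CPM, and at 506, 596 and 407 CPM on day 1. The days overlapped and Jun was not called (adjusted p = 0.106, edgeR quasi-likelihood, BH), though it was without day 0 replicate B, with library sizes alone and on TPM.

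In the other direction, Maf, a large MAF factor, went from 146 ± 7 CPM down to 10.4 ± 3.98 CPM. Dbp, an output factor of the circadian clock, fell from 94.2, 265 and 168 CPM to 13.5, 27.2 and 13.8 CPM. Arntl, the clock factor BMAL1, was at 11.3, 0.684 and 6.52 CPM on day 0 and at 25.9, 25.3 and 25.5 CPM on day 1. The day 0 libraries thus differed among themselves in both clock genes, with B highest for Dbp and lowest for Arntl, while Arntl was nearly even on day 1.

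Promoter windows from RefSeq (GRCm38.p6, 250 bases before to 50 after a start) were searched on both strands for TGANTCA, used here for the AP-1 motif. N stood for any base, so TGAATCA and TGATTCA were counted beside TGACTCA and TGAGTCA. A window was found for 11987 of 18723 tested genes with a name held once, 15307 windows in all, some of them overlapping windows of 1 gene. The motif was in 13.3% of 1351 windows of genes called at least 4-fold higher, in 4.94% of 1843 windows of genes at least 4-fold lower and in 5.80% of all. The NF-kB motif was in 3.63%, 1.57% and 1.74% of the same sets. The ETS motif CCGGAAG was in 8.29%, 4.78% and 15.4%, so it was less frequent in both sets of changed genes than in all windows. In the same order (higher, lower, all), the CRE TGACGTCA was in 2.37%, 0.760% and 2.76% of the windows. The antioxidant response element TGACNNNGC, which can overlap the AP-1 motif, was in 15.5%, 13.7% and 14.1%. The ATF4 and C/EBP composite element TGATGNAA was in 3.41%, 3.04% and 2.29%, and the E-box CACGTG in 10.2%, 7.76% and 9.45%. The TEAD motif GGAATGT was in 3.85%, 4.015% and 3.03%, so the higher and lower sets were close to each other and both above all windows. The HNF4 motif CAAAGTNCA was in 1.33%, 1.25% and 1.19% and the heat shock element in 0.296%, 0.543% and 0.470%. No window held the palindromic HNF1 motif. A match is a description of these letters, not a shown binding site.

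The sequences below were picked after their values were seen, to show the motif before genes that are described further on. They are 5 genes that rose (Plaur, Met, Mmp3, Mmp10 and Srxn1), 1 that fell and also holds the AP-1 motif (Sucnr1), and 1 with the NF-kB motif (Ccl20). Each run reads 5′ to 3′ on the plus strand of GRCm38.p6 (RefSeq), goes up to 60 bases beyond the match and ends before the start site, and the capitals mark the match. They lie at chr7:24462354-24462480, chr6:17463843-17463956, chr9:7445716-7445821, chr9:7502219-7502341, chr2:152105362-152105523, chr3:60081650-60081776 and chr1:83116626-83116755, in the order of the lines.
Plaur: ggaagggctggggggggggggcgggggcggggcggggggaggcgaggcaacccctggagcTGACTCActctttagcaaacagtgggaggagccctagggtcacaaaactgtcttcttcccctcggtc
Met: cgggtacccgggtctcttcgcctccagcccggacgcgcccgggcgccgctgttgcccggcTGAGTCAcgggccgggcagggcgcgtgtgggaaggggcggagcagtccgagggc
Mmp3: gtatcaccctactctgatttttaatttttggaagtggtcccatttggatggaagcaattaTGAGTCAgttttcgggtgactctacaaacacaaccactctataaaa
Mmp10: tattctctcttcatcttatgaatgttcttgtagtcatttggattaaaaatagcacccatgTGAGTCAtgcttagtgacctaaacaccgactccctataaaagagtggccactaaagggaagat
Srxn1: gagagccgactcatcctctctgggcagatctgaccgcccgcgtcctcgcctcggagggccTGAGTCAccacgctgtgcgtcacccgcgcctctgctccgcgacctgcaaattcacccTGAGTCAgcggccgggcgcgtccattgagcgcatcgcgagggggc
Sucnr1: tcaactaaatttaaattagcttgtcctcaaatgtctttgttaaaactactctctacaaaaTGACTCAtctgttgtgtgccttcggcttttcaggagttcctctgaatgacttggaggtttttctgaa
Ccl20: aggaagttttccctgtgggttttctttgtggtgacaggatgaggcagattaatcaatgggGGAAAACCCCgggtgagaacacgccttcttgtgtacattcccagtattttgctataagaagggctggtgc

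Nuclear receptors fell. Of 36 tested 26 were lower and 5 higher, with a median log2 fold change of -1.71. Hnf4a (ENSMUSG00000017950, chromosome 2, 163506808 to 163572910, GRCm38) was at 649, 627 and 568 CPM on day 0 and at 52.4, 89.6 and 42.1 CPM on day 1. Ppara, the receptor that drives fatty acid oxidation, went from 69.1, 95.2 and 71.1 CPM to 4.74, 13 and 4.53 CPM. Vdr, the vitamin D receptor, fell from 384 ± 28.9 to 53.6 ± 15.8 CPM, and Esrrg, a regulator of mitochondrial genes, from 118 ± 6.52 to 15.3 ± 2.44 CPM. The days did not overlap for any of these, and replicate B was the highest of day 1 for each. Pparg, the relative of Ppara that acts in fat cells, rose from 0.663, 0.72 and 0.77 CPM to 12.3, 11.8 and 14.5 CPM (log2 fold change 4.16 ± 0.39 SE, adjusted p = 1.26e-07, edgeR quasi-likelihood, BH).

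KLF and ETS factors changed in both directions. Of 19 KLF and SP factors 10 were higher and 7 lower, and of 21 ETS factors 10 were higher and 5 lower. Klf5, a factor of proliferating epithelia (ENSMUSG00000005148, chromosome 14, 99298691 to 99315036, GRCm38), rose from 2.18, 1.66 and 3.39 CPM to 261, 248 and 252 CPM. Klf6, an early injury factor, rose from 76, 104 and 66.8 CPM to 1170, 1311 and 937 CPM. Klf15, which responds to glucocorticoids and controls amino acid use, fell from 223, 235 and 139 CPM to 9.2, 12.9 and 6.49 CPM. The KLF genes thus moved far in both directions. Ets1, which acts in migrating cells, rose from 20.9 ± 1.7 to 281 ± 20.9 CPM, and Elf4 from 2.25 ± 0.589 to 26.8 ± 3.02 CPM. Etv1 and Etv5, which act behind growth factor receptors, fell from 40.3 ± 5.27 to 5.66 ± 2.3 CPM and from 62.9 ± 6.08 to 19.1 ± 1.91 CPM.

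Homeodomain and PAX factors mostly fell, with 22 of 35 lower and 6 higher and a median of -0.78. Lhx1, a factor of nephron formation, fell from 38.3, 38.2 and 32.5 CPM to 3.18, 2.78 and 3.3 CPM, and Emx1 from 24.8 ± 2.33 to 2.78 ± 1.15 CPM. Tgif1, a repressor of TGF-beta signalling, rose from 12.7, 13.5 and 16.3 CPM to 108, 105 and 105 CPM. Of the bHLH and PAS factors 18 of 42 were lower and 8 higher, with a median of -0.10 that turned to 0.20 with library sizes alone. Myc, which drives ribosome production and growth, rose from 12.5, 15.2 and 8.31 CPM to 385, 470 and 402 CPM. Id2, which blocks bHLH factors, was high at isolation with 858, 826 and 729 CPM and fell to 102, 153 and 119 CPM.

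The factors of interferon, cytokine and NF-kB signalling rose in 13 of 20 cases and fell in 3, with a median of 0.78. Relb and Nfkb2, the pair of the non-canonical NF-kB pathway, rose from 3.54 ± 0.9 to 37.8 ± 1.05 CPM and from 12 ± 0.88 to 95.2 ± 8.3 CPM. Bcl3, a nuclear partner of NF-kB, rose from 3.88 ± 0.803 to 30.6 ± 3.37 CPM. Irf7, an interferon-induced factor, was at 50.8, 8 and 46.6 CPM on day 1 against 4.54, 4.32 and 7.54 CPM, so replicate B lay close to the day 0 range. Of the SOX, FOX, RUNX, GRHL, TEAD and TFAP2 group 13 of 42 were higher and 12 lower, a near balance that became 13 and 13 with DESeq2 size factors. Runx1, a factor of blood and injured epithelia, rose from 0.615, 0.252 and 0.565 CPM to 68, 64.9 and 68.5 CPM. Foxi1, the factor of intercalated cells in the collecting duct, fell from 50.7, 44.5 and 78 CPM to 3.71, 4.96 and 4.89 CPM, beside the fall of all 8 collecting duct markers, of which it is one.

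**Figure D3:**
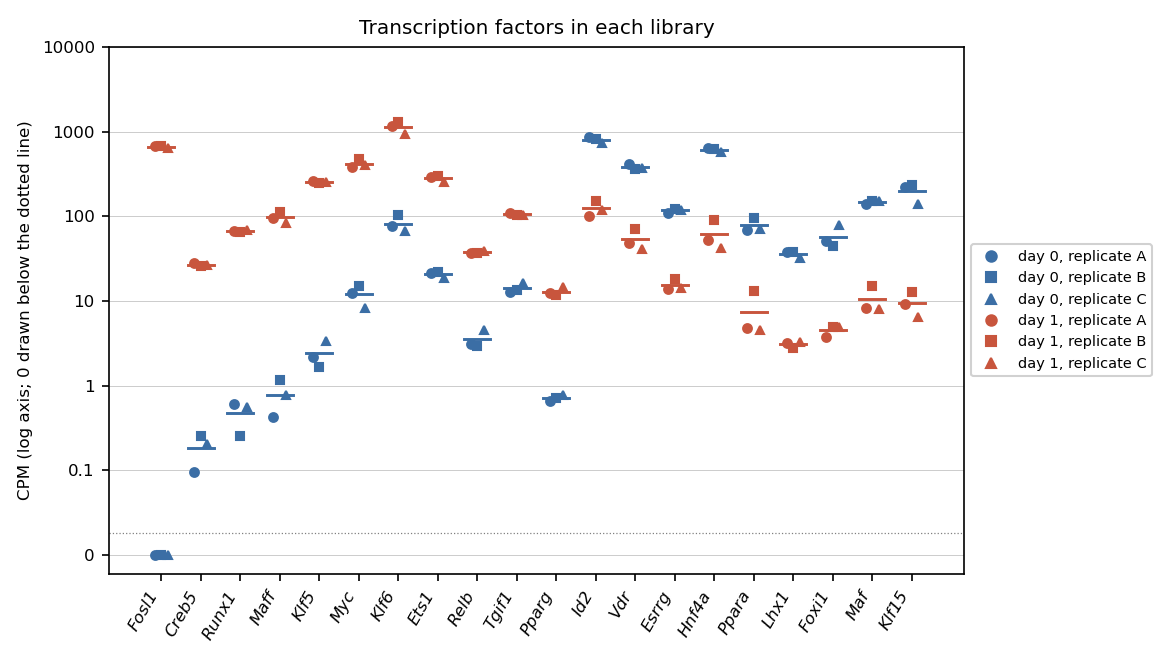
CPM (log axis) of 20 transcription factors in each of the 6 libraries, with bars for the mean of a day and values of 0 drawn below the dotted line. The 11 on the left rose, from Fosl1 at 0 on day 0 to Pparg at 12.9 CPM on day 1, and the 9 on the right fell. The days do not overlap for any of them.

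Secreted factors split evenly as a class. Of 270 tested 102 were higher and 108 lower, with a median of -0.04. At least 4-fold, 68 were higher and 49 lower, against 1643 and 1971 of all 18754 genes tested. Of the 68, 22 were cytokines and chemokines and 21 growth factors and hormones. Among cytokines and chemokines 29 of 47 were higher and 10 lower, with a median of 1.83. Il1rn, the secreted antagonist of the IL-1 receptor (ENSMUSG00000026981, chromosome 2, 24336853 to 24351494, GRCm38), was at 0, 0 and 0.359 CPM on day 0 and at 193, 210 and 229 CPM on day 1. Its log2 fold change was 10.93 ± 0.56 (SE), with an adjusted p of 1.21e-10 (edgeR quasi-likelihood, BH). The size of this change is loosely set, as only replicate C had counts on day 0. Over the alternative fits and scalings it ran from 6.98 to 15.55. Il24, an IL-10 family cytokine of stressed epithelia, had no counts on day 0 and 27.9, 25.8 and 34.8 CPM on day 1, at least 676-fold higher over the floor of 3 counts. Il1f6, which encodes IL-36 alpha, also went from no counts to 14, 19.4 and 25.6 CPM, at least 447-fold higher. Ccl20, whose NF-kB motif is shown above, attracts CCR6-bearing immune cells. It had 1 count over the day 0 libraries and 13.5, 13.4 and 24.6 CPM on day 1.

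Other cytokines fell. Il15, which sustains resident lymphocytes and tubule cells, fell from 15.8, 19.2 and 15.6 CPM to 2.02, 2.31 and 1.78 CPM, and Tnfsf10, the death ligand TRAIL, from 15.7 ± 1.51 to 1.44 ± 0.346 CPM. Spp1, osteopontin, was at 5206 ± 568 and 3112 ± 727 CPM. It was called lower (adjusted p = 0.00441, edgeR quasi-likelihood, BH), but not with library sizes alone, on TPM or against a fold of 2.

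Growth factors and hormones rose in 27 of 61 cases and fell in 19. Egf, a growth factor made mainly in the distal nephron (ENSMUSG00000028017, chromosome 3, 129677565 to 129755316, GRCm38), was at 2878, 2534 and 1808 CPM on day 0 and at 158, 190 and 59.6 CPM on day 1. The markers of the loop and distal tubule fell beside it, and their part in this result was not tested. Angpt1, an angiopoietin that steadies vessels, fell from 43.7, 49 and 41.5 CPM to 1.8, 2.95 and 0.87 CPM. Adm, the vasodilator adrenomedullin, rose from 12.1 ± 0.149 to 171 ± 21.4 CPM. Inhbb, the activin B subunit, rose from 0.484 ± 0.148 to 13.4 ± 3.63 CPM. Gas6, the ligand of the AXL receptor, fell from 763, 887 and 866 CPM to 127, 181 and 102 CPM. Its receptor gene Axl went the other way, from 16.5, 21.1 and 16.9 CPM to 119, 137 and 87.4 CPM.

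The secreted proteases and their inhibitors were balanced, with 21 of 58 higher and 20 lower (23 and 13 with library sizes alone, 21 and 21 with DESeq2 size factors). Of the proteases described here, 3 rose from next to nothing and 1 fell. Mmp10, a stromelysin with an AP-1 motif in the stretch shown above, had no counts on day 0 and 37.9, 38.1 and 22.6 CPM on day 1, at least 744-fold higher. Mmp3, a related stromelysin, rose from 0.142, 0 and 0.0513 CPM to 18.7, 78 and 61.7 CPM, and Adam8, a sheddase, from 0.0473, 0.072 and 0.154 CPM to 86.1, 84.1 and 91.6 CPM. The 3 day 1 libraries agree closely for Adam8 and lie far apart for Mmp3, with A the lowest. Timp3, a matrix-bound inhibitor of metalloproteases, was at 3402, 4235 and 3903 CPM on day 0 and fell to 591, 786 and 447 CPM. Klk1, tissue kallikrein, fell from 2372 ± 296 to 742 ± 143 CPM.

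Proteins that the kidney adds to plasma or urine fell in 28 of 36 cases and rose in 3, and their share of counts went from 7.02%, 7.18% and 6.56% to 2.77%, 3.13% and 2.21%, most of it Gpx3. Kl, the membrane and circulating protein Klotho, fell from 1461, 1580 and 1609 CPM to 123, 167 and 88.3 CPM, and Sostdc1, a BMP and WNT antagonist, from 145 ± 18.1 to 5.9 ± 2.04 CPM. Growth factor binding proteins and antagonists fell in 17 of 36 cases and rose in 11, but in 8 and 9 cases on log2(TPM + 1). Sfrp1, a WNT antagonist, fell from 268, 230 and 305 CPM to 22.6, 17.5 and 12.6 CPM, and Igfbp4, which binds insulin-like growth factors, from 1661 ± 282 to 330 ± 157 CPM. Ccn2, a matricellular protein and YAP target, rose from 70.8, 63.7 and 38.4 CPM to 406, 552 and 257 CPM. Esm1, a secreted proteoglycan of activated endothelium, rose from 3.31, 5.83 and 5.54 CPM to 55.9, 57.3 and 30.6 CPM. Of 9 endothelial markers 4 rose, 2 fell and 3 were not called. Their sum did not rise, with 229 to 301 CPM on day 0 and 176 to 300.1 CPM on day 1. The part of endothelial cells in the rise of Esm1 was not tested.

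Guidance ligands showed no direction that held, with 11 of 33 higher and 14 lower, and 14 and 12 with library sizes alone. Sema3e, a secreted repellent, rose from 6.48, 7.74 and 4.67 CPM to 160, 190 and 125 CPM, and Sema3c from 42.4 ± 2.55 to 217 ± 21.7 CPM. Sema4a, a membrane semaphorin, fell from 264, 239 and 274 CPM to 39.7, 43.8 and 37 CPM, and Slit2, the ligand of ROBO receptors, from 51.8 ± 7.14 to 6.22 ± 1.89 CPM. The semaphorin genes thus moved in both directions.

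**Figure D4:**
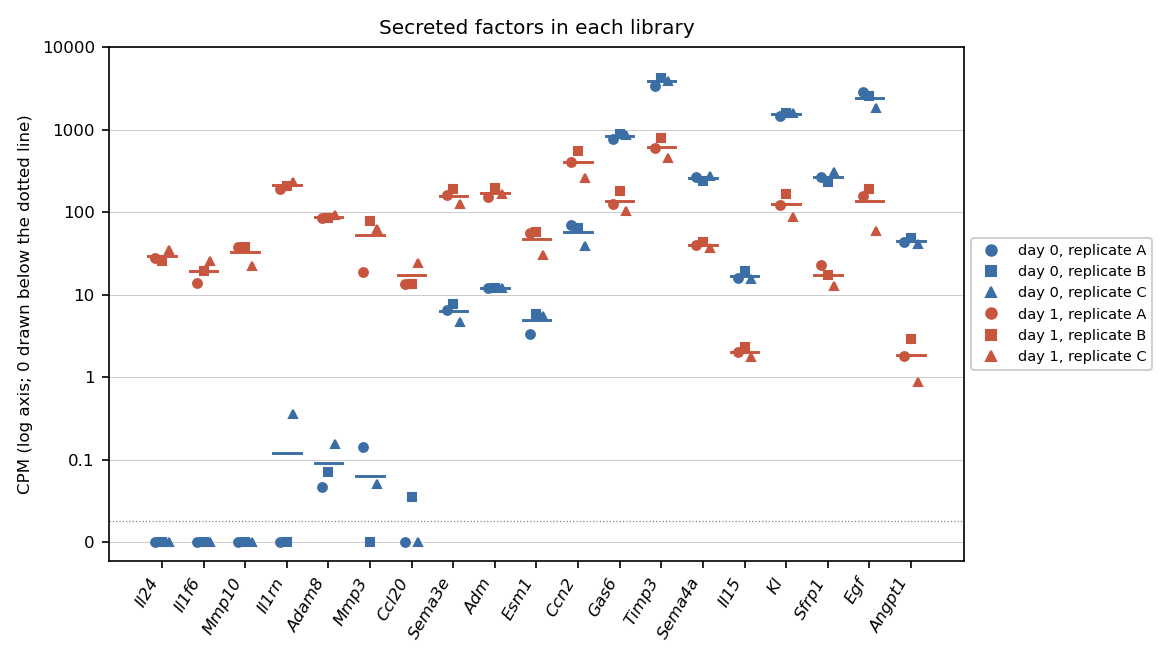
CPM (log axis) of 19 secreted factors in each of the 6 libraries, with bars for the mean of a day and values of 0 drawn below the dotted line. The 11 on the left rose, and Il24, Il1f6 and Mmp10 were at 0 in all 3 day 0 libraries. The 8 on the right fell, among them Timp3, Kl and Egf from more than 1400 CPM in each day 0 library.

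Receptors as a class showed no clear direction. Of 284 tested 115 were lower and 98 higher, with a median of -0.17, close to the shares of all genes. That median is smaller than the shift of 0.30 over all genes from TMM to library sizes alone, so its sign is not settled across scalings. The receptors of IL-1, IL-17, TNF and Toll-like families rose, with 21 of 39 higher and 9 lower and a median of 0.79. Tnfrsf12a, the receptor FN14 for TWEAK (ENSMUSG00000023905, chromosome 17, 23675445 to 23677468, GRCm38), rose from 15.1, 16.2 and 12.8 CPM to 1186, 1131 and 1108 CPM. Its log2 fold change was 6.28 ± 0.12 (SE), with an adjusted p of 4.63e-15 (edgeR quasi-likelihood, BH). Per length, it stood at 20.4, 20.7 and 16.8 TPM and then at 2063, 1859 and 1936 TPM. Tnfrsf23, a decoy receptor for TRAIL, rose from 0.71, 1.15 and 0.719 CPM to 228, 213 and 217 CPM, while the ligand gene Tnfsf10 fell as given above. Il1rl1, the IL-33 receptor ST2, rose from 0, 0.036 and 0.308 CPM to 31.2, 47.3 and 40.3 CPM. Tnfrsf21, the death receptor DR6, fell from 676, 826 and 442 CPM to 150, 206 and 144 CPM, and Sigirr, which restrains IL-1 receptor signalling, from 112 ± 3.43 to 38.3 ± 6.48 CPM.

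Plaur, the urokinase receptor that focuses plasmin at the cell surface (ENSMUSG00000046223, chromosome 7, 24462484 to 24475968, GRCm38), had one of the steepest rises of the receptors. It went from 2.37, 2.92 and 2.62 CPM to 786, 793 and 691 CPM, a log2 fold change of 8.16 ± 0.15 (SE) with an adjusted p of 4.63e-15 (edgeR quasi-likelihood, BH). It was listed among the cargo and scavenger receptors, of which 17 of 29 fell and 7, Plaur included, rose. Folr1, the folate receptor, fell from 509, 480 and 519 CPM to 106, 141 and 88.7 CPM, and Dab2, the adaptor that takes megalin into the cell, from 1149 ± 117 to 275 ± 51.9 CPM. Lrp8, a lipoprotein and reelin receptor, rose from 0.463 ± 0.267 to 26.5 ± 0.153 CPM.

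Of the receptor tyrosine kinases 19 of 44 were lower and 9 higher, with a median of -0.60. The balance was weaker with library sizes alone (15 lower and 11 higher) and on log2(TPM + 1) (13 and 10, median -0.04). Epha2, an ephrin receptor, rose from 1.94, 1.66 and 2.05 CPM to 153, 148 and 145 CPM. Met, the receptor of hepatocyte growth factor, was present at isolation and rose from 191, 194 and 174 CPM to 425, 451 and 396 CPM, an increase of 1.19 ± 0.08 (SE) on the log2 scale. Insrr, an alkali-sensing relative of the insulin receptor, fell from 48, 54.8 and 67.2 CPM to 3.33, 2.87 and 0.943 CPM, and Erbb3, a neuregulin receptor, from 106 ± 8.02 to 23.1 ± 1.64 CPM. Cytokine and hormone receptors of the JAK class were balanced, with 10 of 27 higher and 11 lower (12 and 11 with library sizes alone). Osmr and Il6ra, receptors for oncostatin M and IL-6, rose from 1.64 ± 0.529 to 18.5 ± 2.73 CPM and from 1.98 ± 0.207 to 15.9 ± 2.22 CPM. Ghr, the growth hormone receptor, fell from 560, 601 and 553 CPM to 141, 222 and 136 CPM, and Prlr, the prolactin receptor, from 230 ± 23 to 58.9 ± 24.5 CPM.

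G protein-coupled receptors fell in 31 of 68 cases and rose in 21, with a median of -0.56, but 21 fell and 21 rose on log2(TPM + 1). Pth1r, the parathyroid hormone receptor that controls phosphate uptake (ENSMUSG00000032492, chromosome 9, 110722085 to 110747145, GRCm38), fell from 714, 804 and 797 CPM to 73.9, 126 and 62.2 CPM. The receptors of 2 cycle intermediates were nearly lost. Oxgr1, for oxoglutarate, fell from 64.1, 70.1 and 83.4 CPM to 1.31, 1.63 and 0.761 CPM, and Sucnr1, for succinate, from 33.9, 39.5 and 35.1 CPM to 1.06, 1.2 and 0.508 CPM. Casr, the calcium-sensing receptor, and Ptgfr, a prostaglandin receptor, fell from 50.3 ± 3.97 to 1.8 ± 0.741 CPM and from 106 ± 16.5 to 4.5 ± 2.07 CPM. Oxgr1 and Casr are best known from the collecting duct and the loop of Henle, whose markers fell to 118 to 159 and 258 to 512 CPM as given above. Their part was not tested. Gprc5a, an orphan receptor of epithelia, rose from 3.31, 1.48 and 3.64 CPM to 146, 152 and 151 CPM, and Cxcr4, a chemokine receptor, from 1.41 ± 0.526 to 15.6 ± 3.78 CPM.

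The receptors of the TGF-beta, WNT and NOTCH families fell in 17 of 35 cases and rose in 11, but in 13 and 13 with library sizes alone. Lgr4, the R-spondin receptor, fell from 436, 350 and 343 CPM to 53.1, 60 and 43.7 CPM, and Fzd1, a WNT receptor, from 120, 118 and 127 CPM to 17.3, 19 and 19 CPM. Notch2 rose from 18 ± 3.12 to 43.2 ± 0.634 CPM. Guidance and adhesion receptors rose in 19 of 42 cases and fell in 11. Cd44, the hyaluronan receptor of injured tubules, rose from 0.852, 1.15 and 1.8 CPM to 65.7, 60.5 and 64.4 CPM, and Itga3, a laminin-binding integrin chain, from 33.3 ± 1.66 to 212 ± 24.5 CPM. Itgb8 and Itga1, chains of the integrins that activate latent TGF-beta and bind collagen, fell from 222 ± 22.8 to 43.5 ± 16.3 CPM and from 105 ± 5.36 to 22.6 ± 4.65 CPM. The integrin genes thus moved in both directions while Itgb1, the beta chain many of them share, rose from 328 ± 12.6 to 908 ± 96.2 CPM.

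**Figure D5:**
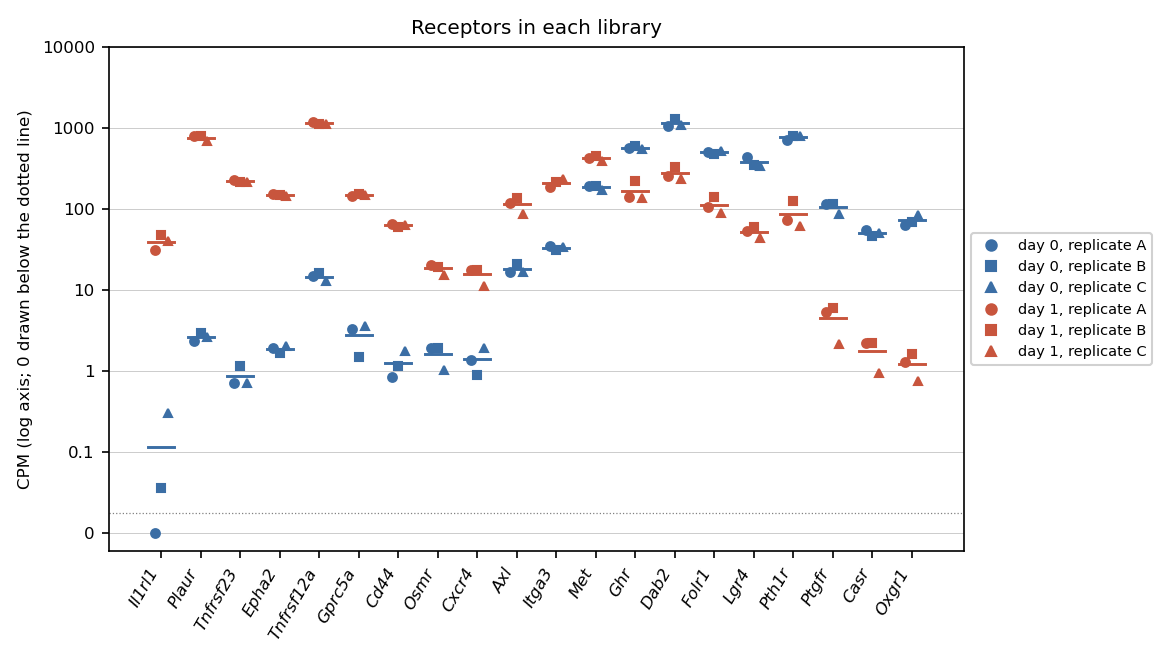
CPM (log axis) of 20 receptor genes (Dab2 encodes an adaptor) in each of the 6 libraries, with bars for the mean of a day and values of 0 drawn below the dotted line. The 12 on the left rose, Met the least steeply, and the 8 on the right fell, Oxgr1 from 72.5 to 1.23 CPM. The days do not overlap for any of them.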

How the data were processed

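The authors deposited estimated counts for each gene, all whole numbers, and a table of TPM, which holds no depth and serves as a check. Trimming and quality control with cutadapt 2.3 and FastQC 0.11.8, and STAR 2.7.8a, RSEM 1.3.3 and GRCm38, are named in the submitters' processing notes. No annotation release or strandedness is given in the sources used here, so overlapping, antisense and near-identical genes can share reads.

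Of 55421 genes (5 reporter transgenes with 0 counts left out) filterByExpr kept 18754. edgeR 4.0.16 (TMM, quasi-likelihood F test) was fitted to all 18 libraries with a mean per day, so that they share an estimate of the spread, and day 1 was set against day 0, with BH adjustment over all genes tested. Each SE is the log2 fold change divided by the square root of F. No 2 libraries of a day agreed within sampling noise. Positions are from the GENCODE annotation of GRCm38. The fit was tested on simulated data.

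The 37 lists (1554 genes, 6 matched by RefSeq synonym, and Ddit3, with 2 overlapping IDs, left out) and the members were chosen with earlier results of these data known. Named were the 4 marker genes, up to 4 called members of a list with the largest change in its main direction and 2 in the other (at least 10 CPM on the higher day, no overlap), its 2 most abundant members, the 12 largest gains and losses in CPM, and cell type markers, of which not all are printed.

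Alternatives were DESeq2 1.42.0 (Wald test, and its size factors in edgeR), library sizes alone, no filter, only the 6 libraries, a replicate block, glmTreat against a fold of 2, limma 3.58.1 on log2(TPM + 1) or log2(TPM + 0.1) with a mean of at least 0.5 TPM or no filter, and libraries left out. R 4.3.3 and Python 3.11.15 were used. Some named genes are not reported here.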

Additional observations from a re-analysis of the deposited data

How the results depend on the processing

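Calls depend most on the scaling and on the smallest change asked for, and fine differences between lists near the background cannot be read from 3 libraries a day. Of 339 named genes with a fit, 270 kept their direction and side of the threshold under each alternative.

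Against a fold of 2 (glmTreat), 2574 genes were higher and 3419 lower. Higher members then numbered 13 for bZIP factors, 3 for ETS factors, 3 for KLF and SP factors, 8 for IRF, STAT and REL factors, 13 for proteases, 10 for guidance and adhesion receptors, 9 for ribosomal proteins, 21 for translation factors, 14 for splicing, 21 for nuclear transport, 9 for the proteasome and 1 for endothelium. Lower members numbered 12 for homeodomain factors, 18 for plasma-type proteins, 8 for guidance ligands, 10 for receptor tyrosine kinases, 8 for TGF-beta, WNT and NOTCH receptors, 10 for cargo receptors, 0 for ER entry, 16 for the tricarboxylic acid cycle, 2 for mitochondrial import, 1 for fibroblasts and 3 for podocytes. The stricter hypothesis by construction calls fewer genes.

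With limma, 4559 genes were lower on log2(TPM + 1) and 4595 on log2(TPM + 0.1). On log2(TPM + 1), lower members numbered 13 for homeodomain factors, 8 for growth factor binding proteins, 7 for JAK class receptors, 11 for TGF-beta, WNT and NOTCH receptors, 7 for ER entry, 1 for fibroblasts and 3 for podocytes. On log2(TPM + 0.1) they numbered 9 for binding proteins, 9 for guidance ligands, 11 for cargo receptors, 7 for ER entry, 1 for fibroblasts and 3 for podocytes. Without a filter they numbered 11 for binding proteins, 9 for guidance ligands, 10 for receptor tyrosine kinases, 10 for TGF-beta, WNT and NOTCH receptors, 7 for ER entry, 1 for fibroblasts and 3 for podocytes. With library sizes alone they numbered 9 for ER entry, 11 for mitochondrial import and 1 for fibroblasts, and with the 6 libraries alone 1 for fibroblasts. As shares of TPM, the log2 ratios of day 1 to day 0 were 1.43 for translation factors, 1.23 for splicing, 1.75 for nuclear transport, 1.04 for nucleotide and polyamine synthesis and 0.29 for mitochondrial import. The cause was not tested.

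Among named genes called lower, the log2 fold changes of 4 turned from below 0 to above it. On log2(TPM + 1), log2(TPM + 0.1) and log2(TPM + 1) without a filter, the Irf3 log2 fold change was 0.0701, 0.0722 and 0.0701, the Hnrnpl log2 fold change 0.0916, 0.0926 and 0.0916, the Ipo8 log2 fold change 0.0148, 0.0156 and 0.0148, and the Xpo7 log2 fold change 0.125, 0.130 and 0.125. With library sizes alone the last was 0.0541. The cause was not tested.

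Leaving out single libraries gave 5793 to 6706 higher and 6599 to 7458 lower genes, and 1 to 2 lower fibroblast markers (1 when C of day 0, or B or C of day 1, was left out). Samples with the same letter had correlations of 0.00947, 0.00467 and 0.0821 between their deviations from the day means. Pairs of different letters ranged from -0.0818 to 0.0680, the latter for day 0 replicate A with day 1 replicate B. Values this small do not settle whether the letters mark pairs. A replicate block gave 6183 higher and 6950 lower genes and 1 lower fibroblast marker.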
